A study of Homo sapiens with 6 samples.

Results

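The genes described here encode collagens, laminins and other proteins of the extracellular matrix, together with enzymes that modify collagen. They were the 42 genes of a fixed list, found by their symbols in a table of 23524 genes, and all 42 were listed. mRNA was sequenced from Hep G2, a human liver tumor line whose cells had been infected with an empty lentiviral vector (control, 3 libraries) or with a lentivirus that expresses EFTUD2 (3 libraries). EFTUD2 encodes a spliceosomal GTPase, and the comparison asked which genes follow its stable overexpression. All cells carried a lentiviral vector, and stable lines of this study were selected with puromycin. Neither the labels nor the methods say whether a line was 1 clone, or whether the 3 libraries of a group came from separate cultures, so p-values measure the spread between libraries, which may be technical.

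The extracellular matrix is secreted by cells and holds them in place. Fibrillar collagens form the cables of connective tissue, whereas type IV collagen, laminins, nidogens and the heparan sulfate proteoglycans perlecan and agrin build the basement membrane, the thin sheet under epithelia and around vessels. In the liver most fibrillar collagen comes from stellate cells and fibroblasts, and hepatocytes rest on a sparse matrix rich in fibronectin. Matricellular proteins such as osteopontin and thrombospondin signal to cells more than they bear load.

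Levels are given in FPKM, sequenced fragments scaled to transcript length and library size, which allows genes to be compared per length. The depth of the libraries is unknown, so no counting error can be given, and the values were rounded to 2 decimals by the authors. EFTUD2 itself measured 41.1, 54.4 and 46.3 FPKM in control cells versus 106.6, 102.9 and 109.5 FPKM in EFTUD2 cells, so the libraries match their labels. Where 3 values are given for a group, here and below, they follow the replicate numbers, and the controls come first. All 9 hepatocyte markers were expressed, with ALB between 1773 and 4732 FPKM. Among the EFTUD2 libraries, replicate 3 stood apart: the SD over genes of the difference in log2(FPKM + 1) was 0.508 from replicate 1 and 0.596 from replicate 2, against 0.231 between replicates 1 and 2. Values without it are given in the text for part of the genes, and in the plot of fold changes for 36 matrix genes.

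The 42 genes fell into 2 levels in the control cells, as the plot of levels by library shows. A control mean of at least 1 FPKM was found for 23 genes, led by SPP1, and a control mean under 0.5 FPKM for the other 19. Together the 19 low genes summed to 1.73, 1.48 and 2.08 FPKM in control cells versus 16.9, 35.9 and 4.94 FPKM in EFTUD2 cells. Every EFTUD2 library was above every control in this sum, but replicate 3 was far under the other two. These genes were grouped by their low control level and could hardly be lower, so the direction of the sum is no result. In a bulk library, a few cells with much of a transcript and many cells with little of it cannot be told apart.

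**Figure D1:**
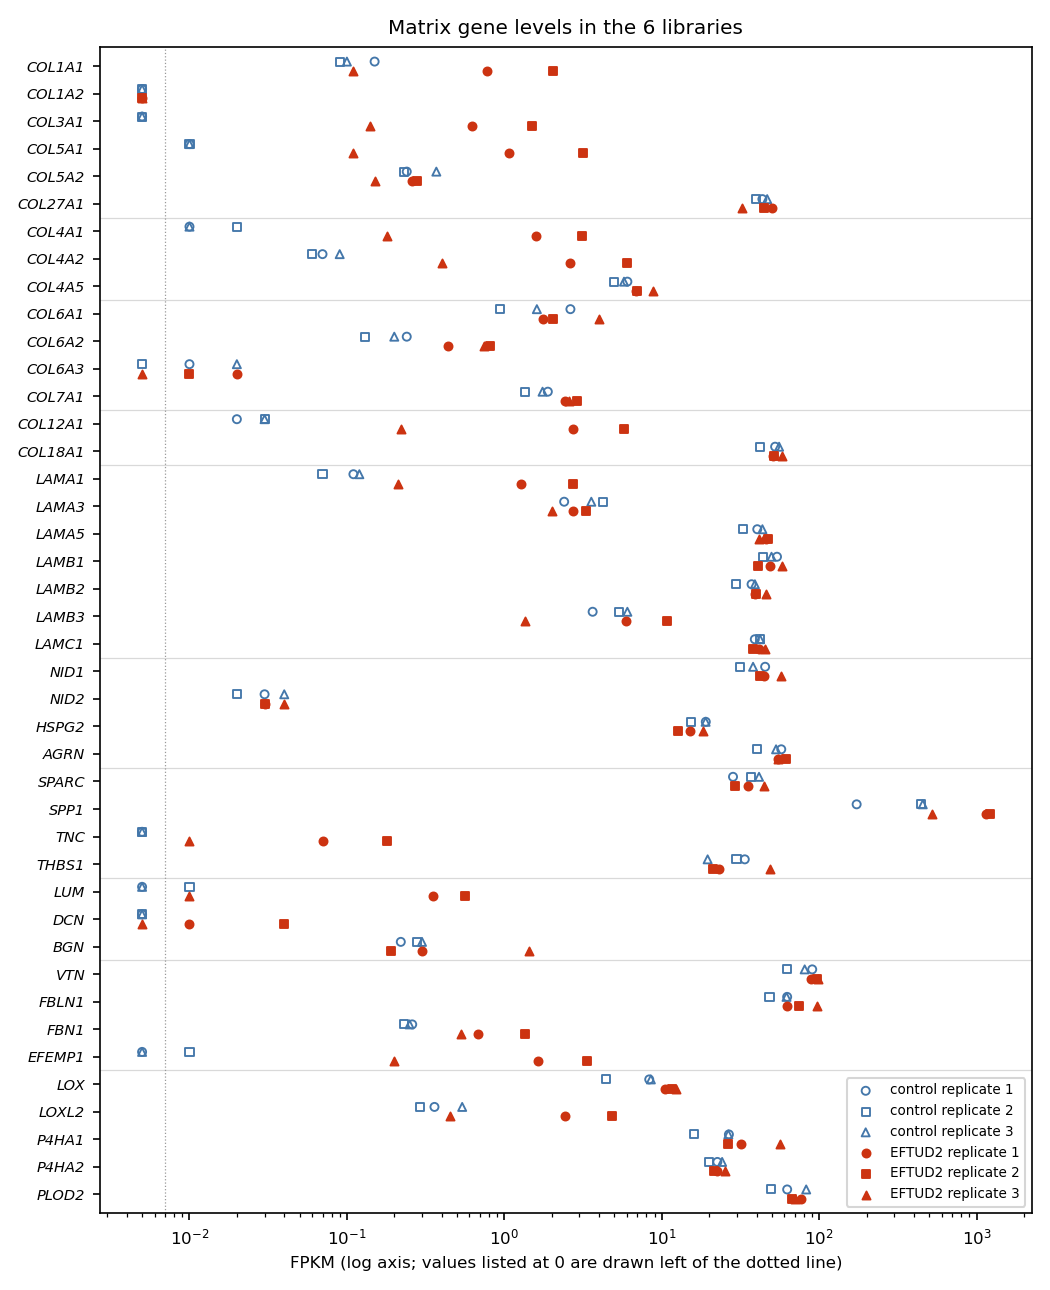
Level of each of the 42 matrix genes (rows, ordered by role and divided by grey lines) in FPKM on a log axis, with control libraries as open blue symbols and EFTUD2 libraries as filled red ones. The 23 genes expressed in the controls lie to the right, and among the low genes the EFTUD2 libraries of COL4A1, COL4A2, COL5A1, COL12A1, LAMA1 and EFEMP1 lie right of every control.

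Differences were tested with limma on log2(FPKM + 1) over the 17222 genes that averaged 0.1 FPKM or more, and p-values were adjusted by the Benjamini-Hochberg method over all of them. Of the 42 genes, 37 could be tested. COL1A2, COL6A3, NID2, DCN and TNC were too low. A further 7 (COL3A1, COL4A1, COL4A2, COL5A1, COL12A1, LUM and EFEMP1) passed this limit through the EFTUD2 libraries alone. For these a higher level was a condition of being tested, so that their direction is no result. Counts by p-value or by fold change are also given over the 30 genes that averaged 0.1 FPKM or more in the controls. With limma, 0 of the 37 genes had an adjusted p under 0.05, as was the case for 0% of all genes tested. The smallest adjusted p of any gene in this limma fit was 0.126, and that of the overexpressed EFTUD2 was 0.131. At an unadjusted p under 0.05, 14 of the 37 were higher and 0 lower in EFTUD2-overexpressing cells. Among all genes tested, 4.4% were higher and 7.9% lower. Over the 30 genes, 8 were higher, against 3.4% of all genes with such a control mean. The count of 14 fell to 7, 5 and 6 without control replicates 1, 2 and 3, to 6 without EFTUD2 replicate 1 and to 9 without EFTUD2 replicate 2.

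The 2 groups did not overlap for 15 of the 37 genes, all higher with EFTUD2, and for 0 in the lower direction. Over all genes tested these shares were 7.92% higher and 19.4% lower. The 15 include COL3A1, COL4A1, COL4A2, COL5A1, COL12A1 and EFEMP1, which had been tested through the EFTUD2 libraries alone and could hardly be lower. Without EFTUD2 replicate 3, 19 genes were higher without overlap and 1, HSPG2, lower, against 14.8% and 25.2% of all genes. The 19 include all 7 genes tested through the EFTUD2 libraries alone. Of the 15, 6 had a control mean of at least 1 FPKM (COL4A5, COL7A1, LAMB2, SPP1, FBLN1 and LOX), out of 23 such genes. Among all genes expressed at that level in the controls, 5.86% were higher without overlap and 24.2% lower. A log2 fold change of at least 1 was found for 7 of the 37, against 1.25% higher and 0.273% lower over all genes. Of these 7, 5 had been tested through the EFTUD2 libraries alone, and the 2 among the 30 genes were SPP1 and LOXL2, against 0.807% of all genes with such a control mean. The median log2 fold change was 0.36 over the 37 genes (0.27 without EFTUD2 replicate 3) and 0.19 over the 23 expressed ones, against -0.07 over all genes tested and -0.13 over all genes expressed at that level in the controls. The median over the 37 includes the genes tested through the EFTUD2 libraries alone, and that over the 23 does not.

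Without EFTUD2 replicate 3, limma called 6 of 37 genes at an adjusted p under 0.05, against 0.973% of all genes tested. These were COL4A1, COL4A2, COL12A1, LAMA1, EFEMP1 and LOXL2. The first 3 and EFEMP1 had been tested through the EFTUD2 libraries alone, which leaves LAMA1 and LOXL2 of the 30 genes, against 0.578% of all genes with such a control mean. LAMA1 lies on the limit of these 30 genes, with a control mean of 0.1 FPKM. A further limma fit used weights that let a deviant library count less. The weights, estimated from these same data, were 0.48, 1.02 and 3.54 for the controls and 4.11, 1.16 and 0.121 for the EFTUD2 libraries. This fit thus rested mostly on control replicate 3 and EFTUD2 replicate 1. It called 13 of the 37, against 7.87% of all genes: the same 6 and COL1A1, COL3A1, COL5A1, COL7A1, SPP1, LUM and FBN1. All 7 genes tested through the EFTUD2 libraries alone are among them, and the other 6 (COL1A1, COL7A1, LAMA1, SPP1, FBN1 and LOXL2) compare with 6.58% of all genes with such a control mean.

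**Figure D2:**
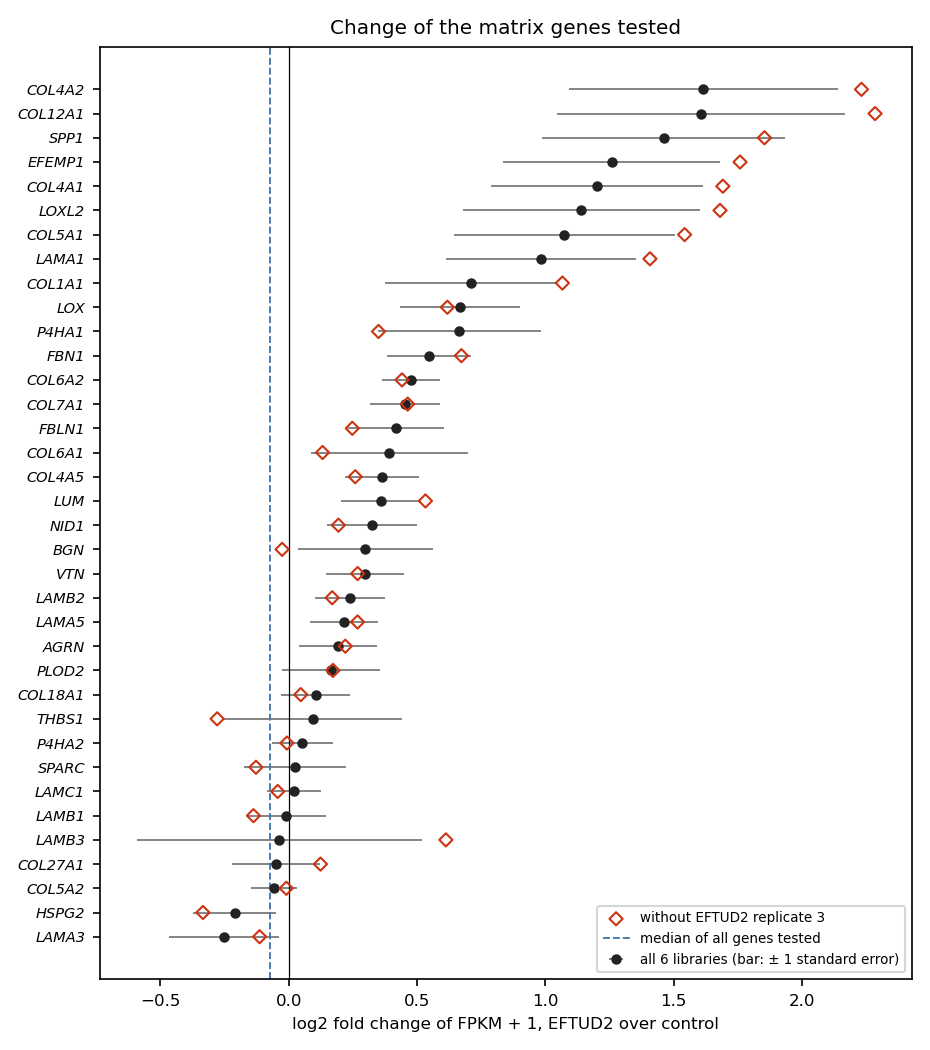
Log2 fold change of FPKM + 1 (horizontal axis, EFTUD2 over control) for 36 matrix genes, with bars of 1 standard error; red diamonds leave out EFTUD2 replicate 3, and the dashed line is the median of all genes tested (-0.07). COL3A1 is left out, as it was listed at 0 in all controls. Without replicate 3 the genes at the top move right, to 2.23 for COL4A2 and 2.28 for COL12A1, and THBS1 moves to -0.28.

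Of the basement membrane genes, LAMA5, LAMB1, LAMB2, LAMC1, NID1, HSPG2, AGRN and COL18A1 were expressed at over 15 FPKM in every control library, whereas COL4A1, COL4A2, LAMA1 and NID2 were nearly silent there. Laminins are trimers of an alpha, a beta and a gamma chain. LAMA5, an alpha chain, measured 40.5, 32.7 and 43.6 FPKM in control cells versus 46.1, 47.4 and 41.8 FPKM in EFTUD2 cells. LAMB1, a beta chain, measured 54.0, 44.0 and 49.8 FPKM versus 48.6, 40.9 and 58.4 FPKM, and LAMC1, the gamma chain, at 39.0, 42.2 and 42.1 FPKM and at 41.8, 38.0 and 45.6 FPKM. For each of these 3 chains the groups overlapped. The log2 fold change was 0.22 for LAMA5 (95% interval -0.10 to 0.53, adjusted p = 0.47 from limma), -0.01 for LAMB1 (-0.38 to 0.36) and 0.02 for LAMC1 (-0.23 to 0.27).

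LAMB2, the other beta chain, measured 37.2, 29.8 and 39.1 FPKM in control cells versus 39.4, 39.8 and 46.0 FPKM in EFTUD2 cells. Its groups did not overlap, but the lowest EFTUD2 value and the highest control value were close (log2 fold change 0.24, SE 0.14, limma adjusted p = 0.45). The ratio of LAMB2 to LAMB1 was 0.717 ± 0.0587 in the controls and 0.858 ± 0.102 in the EFTUD2 libraries (SD, n = 3 each; exact two-sided permutation test, p = 0.1, the smallest that 3 against 3 libraries allow; 0.175 after adjustment over 7 such ratios). The sum of both beta chains was 2.07 ± 0.297 times LAMC1 in the controls and 2.17 ± 0.101 times with EFTUD2 (SD, n = 3 each), and LAMA5 was 0.949 ± 0.151 and 1.09 ± 0.166 times LAMC1. The transcripts of these chains were thus of a similar order in all 6 libraries.

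Nidogen, perlecan and agrin, which connect laminin to other parts of the basement membrane, gave no adjusted p under 0.05 and differed in sign. NID1, which encodes nidogen, measured 45.4, 31.3 and 38.0 FPKM in control cells versus 44.9, 42 and 57.2 FPKM in EFTUD2 cells. Its log2 fold change was 0.32 (SE 0.18, limma adjusted p = 0.44), and 0.19 without EFTUD2 replicate 3. AGRN, which encodes agrin, measured 57.5, 40.2 and 53.3 FPKM versus 54.6, 61.9 and 54.5 FPKM. HSPG2, which encodes perlecan, was the lowest of these genes, with 19.1, 15.3 and 19.0 FPKM in control cells versus 15.1, 12.7 and 18.2 FPKM in EFTUD2 cells. Its log2 fold change of -0.21 (SE 0.16, limma adjusted p = 0.54) was, with that of LAMA3, among the 2 most negative of the 37. COL18A1, the source of the angiogenesis inhibitor endostatin, measured 52.5, 41.9 and 55.7 FPKM versus 50.8, 51.9 and 58.1 FPKM (log2 fold change 0.11, SE 0.13, limma adjusted p = 0.71). NID2, the second nidogen, did not exceed 0.04 FPKM in any library.

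**Figure D3:**
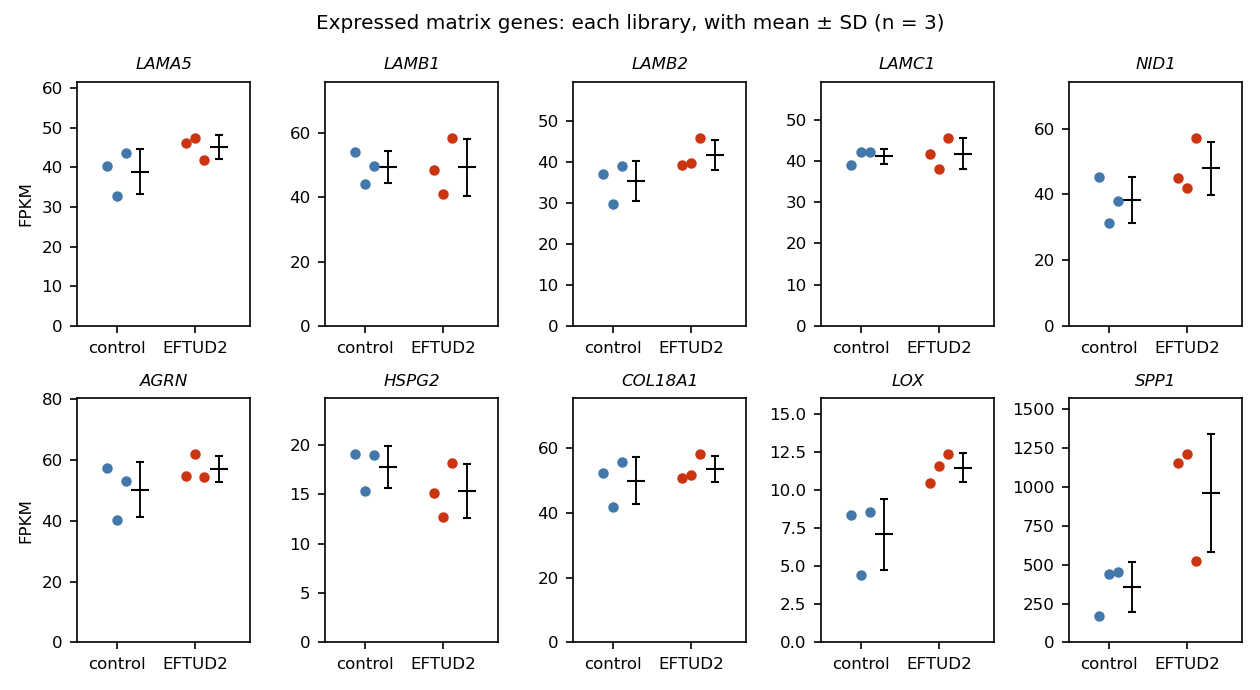
FPKM of 10 expressed matrix genes in each control (blue) and EFTUD2 (red) library, with the mean and SD of each group (n = 3) in black and every axis starting at 0. The groups of LAMA5, LAMB1, LAMC1, NID1, AGRN, HSPG2 and COL18A1 overlap, whereas those of LAMB2, LOX and SPP1 do not.

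Type IV collagen, the mesh of the basement membrane, presented 2 patterns. COL4A5 was expressed already in control cells and measured 6.05, 4.98 and 5.76 FPKM versus 6.83, 6.92 and 8.77 FPKM. Its groups did not overlap, and replicate 3 was the highest (log2 fold change 0.36, SE 0.14, limma adjusted p = 0.40). COL4A1 and COL4A2, which encode the chains found in almost all basement membranes, were nearly absent in the controls. COL4A1 measured 0.01, 0.02 and 0.01 FPKM there versus 1.60, 3.12 and 0.18 FPKM in EFTUD2 cells. COL4A2 measured 0.07, 0.06 and 0.09 FPKM versus 2.62, 6.01 and 0.40 FPKM. In each gene all EFTUD2 libraries were above all controls, in the order replicate 2, replicate 1, replicate 3. Further type IV genes were in the second matrix list described below. COL4A6 measured 1.57, 1.36 and 1.74 FPKM in control cells versus 1.61, 1.09 and 1.74 FPKM in EFTUD2 cells, with overlap. COL4A3 and COL4A4 did not exceed 0.05 FPKM in any library.

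The log2 fold change of COL4A1 was 1.20 (standard error 0.41) and that of COL4A2 was 1.61 (standard error 0.52). Each had an adjusted p of 0.40 from limma. Without EFTUD2 replicate 3, the EFTUD2 library in which both were lowest, this became 0.028 for COL4A1 and 0.029 for COL4A2. Both genes had been tested through the EFTUD2 libraries alone, so their direction is no result. Without EFTUD2 replicate 2, the log2 fold change was 0.79 for COL4A1 and 1.07 for COL4A2. With pseudocounts of 0.1 and 0.01 in place of 1 it was 3.35 and 5.43 for COL4A1 and 3.55 and 4.50 for COL4A2, so for genes this low the size of the change depends on the pseudocount. COL4A1 was 0.611, 0.519 and 0.45 times COL4A2 in EFTUD2 replicates 1 to 3, a ratio that varied far less than the levels. In the controls this ratio was 0.143, 0.333 and 0.111, from values so low that their rounding weighs on it.

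COL4A1 and COL4A2 lie head to head on chromosome 13 and are transcribed in opposite directions from a shared stretch. COL4A1 extends from 110148963 to 110307157 on the minus strand and COL4A2 from 110307284 to 110513209 on the plus strand (RefSeq, GRCh38.p14), so that 126 bases separate the annotated starts. This stretch is shown because it precedes both genes. It is given on the plus strand, chr13:110307158-110307283, with a CCAAT and a GGGCGG motif in capitals:

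COL4A1-COL4A2: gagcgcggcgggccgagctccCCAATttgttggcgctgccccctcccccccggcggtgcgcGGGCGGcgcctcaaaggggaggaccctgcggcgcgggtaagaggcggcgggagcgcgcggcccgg

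G and C made up 80.2% of these bases. Promoter windows of 300 bases (250 before and 50 after the start, RefSeq, GRCh38.p14) were at hand for 31 of the 42 genes. GGGCGG was present on either strand in the windows of 23 of the 31 genes and of 48.3% of all genes with a window. CCAAT was present in those of 11 of the 31 and of 39.7% of all genes. A match describes the letters of a window and does not show that a factor binds there.

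Fibrillar and fibril-associated collagens were likewise split between an expressed gene and nearly silent ones. COL27A1, a fibrillar collagen of cartilage, was the highest of them, with 43.6, 39.7 and 46.8 FPKM in control cells versus 50.1, 44.5 and 32.5 FPKM in EFTUD2 cells, with replicate 3 the lowest of all libraries. COL1A1, a chain of type I collagen and the main fibrillar collagen of scar tissue, measured 0.15, 0.09 and 0.10 FPKM in control cells versus 0.78, 2.05 and 0.11 FPKM in EFTUD2 cells. Here replicate 3 fell among the controls, so the groups overlapped (log2 fold change 0.71, SE 0.33, limma adjusted p = 0.41). The log2 fold change was 0.34 without EFTUD2 replicate 2 and 1.07 without replicate 3. COL1A2, which encodes the partner chain of type I collagen, was listed at 0 in all 6 libraries.

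COL3A1, found beside type I collagen in soft tissues, was listed at 0 in every control and measured 0.62, 1.49 and 0.14 FPKM in EFTUD2 cells. COL5A1, a collagen that starts fibrils, measured 0.01 FPKM in each control and 1.07, 3.18 and 0.11 FPKM in EFTUD2 cells (log2 fold change 1.07, SE 0.43, limma adjusted p = 0.40). The log2 fold change was 0.59 without EFTUD2 replicate 2, 1.54 without replicate 3, and 3.08 and 5.22 with pseudocounts of 0.1 and 0.01 in place of 1. Its partner COL5A2 did not share this pattern, with 0.24, 0.23 and 0.37 FPKM versus 0.26, 0.28 and 0.15 FPKM. COL12A1, which decorates the surface of fibrils, measured 0.02, 0.03 and 0.03 FPKM in control cells versus 2.72, 5.72 and 0.22 FPKM in EFTUD2 cells. Its log2 fold change was 1.61 (SE 0.56, limma adjusted p = 0.40, and 0.026 without EFTUD2 replicate 3). COL3A1, COL5A1 and COL12A1 had been tested through the EFTUD2 libraries alone, so their direction is no result.

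Type VI and type VII collagens link cells and basement membranes to the tissue around them. COL7A1, the anchoring fibril collagen, measured 1.89, 1.35 and 1.75 FPKM in control cells versus 2.44, 2.89 and 2.58 FPKM in EFTUD2 cells. The 3 EFTUD2 libraries were close to each other and above every control, with a ratio of means of 1.59 (log2 fold change 0.45, SE 0.14, limma adjusted p = 0.40). COL6A2 measured 0.24, 0.13 and 0.20 FPKM versus 0.44, 0.81 and 0.74 FPKM, and it had the smallest unadjusted p of the 37 genes, 0.0042 (adjusted p = 0.39 from limma). COL6A1 overlapped between the groups, with 2.63, 0.94 and 1.61 FPKM versus 1.75, 2.04 and 3.97 FPKM. Its log2 fold change was 0.39, and 0.13 without EFTUD2 replicate 3. COL6A3, which encodes the third chain, did not exceed 0.02 FPKM.

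LAMA3 and LAMB3 encode the alpha and beta chains of a laminin of stratified epithelia. LAMA3 measured 2.40, 4.24 and 3.57 FPKM in control cells versus 2.75, 3.28 and 2.0 FPKM in EFTUD2 cells. LAMB3 measured 3.64, 5.36 and 6.05 FPKM in control cells versus 5.91, 10.9 and 1.35 FPKM in EFTUD2 cells, so that the highest and the lowest of all 6 libraries were EFTUD2 libraries. Its log2 fold change of -0.04 (standard error 0.56) became 0.61 without replicate 3 (adjusted p = 0.33 from limma).

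LAMA3 and LAMB3 were the 2 genes of the 31 whose promoter windows held TGAGTCA or its reverse TGACTCA, the letters that AP-1 factors are known to prefer. Such letters were found in the windows of 6.05% of all genes with a window, close to the 6.45% of the 31. LAMA3 has several annotated starts, and this window precedes an internal one, well downstream of the first start of the gene at 23689453. The stretches before the start are shown because they hold the motif, which is in capitals. They are given on the strand of the gene, at chr18:23872868-23872984 (plus strand, the internal start) and chr1:209651408-209651468 (minus strand, 1 of several annotated starts), RefSeq, GRCh38.p14:

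LAMA3: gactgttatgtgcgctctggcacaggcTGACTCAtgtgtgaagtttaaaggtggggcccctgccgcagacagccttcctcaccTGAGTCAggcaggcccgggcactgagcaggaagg

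LAMB3: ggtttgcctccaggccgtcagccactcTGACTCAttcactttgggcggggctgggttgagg

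The motif began 125 and 69 bases before this internal start in LAMA3 and 67 bases before the start shown in LAMB3. The FPKM values do not separate transcripts by their start.

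LAMA1, the alpha chain of the laminin of the early embryo, measured 0.11, 0.07 and 0.12 FPKM in control cells versus 1.28, 2.73 and 0.21 FPKM in EFTUD2 cells (log2 fold change 0.98, SE 0.37, limma adjusted p = 0.40, and 0.048 without EFTUD2 replicate 3). EFEMP1, a glycoprotein of the fibulin family, measured 0, 0.01 and 0 FPKM in control cells versus 1.64, 3.36 and 0.20 FPKM in EFTUD2 cells. FBN1, which encodes the microfibril protein fibrillin, measured 0.26, 0.23 and 0.25 FPKM versus 0.68, 1.35 and 0.53 FPKM (log2 fold change 0.55, SE 0.16, limma adjusted p = 0.40). For each of these 3 genes all EFTUD2 libraries were above all controls, but EFEMP1 had been tested through the EFTUD2 libraries alone. Without EFTUD2 replicate 2, the library in which they were highest, the log2 fold change was 0.59 for LAMA1, 0.83 for EFEMP1 and 0.36 for FBN1, and likewise 1.05 for COL12A1 and 0.68 for LOXL2, a collagen-modifying enzyme.

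Many of the low genes were highest in EFTUD2 replicate 2. Of the 11 genes with a control mean under 0.5 FPKM and at least 1 FPKM in any EFTUD2 library, 10 were highest in replicate 2, against 61% of the 516 genes of the whole table within the same limits. A high EFTUD2 library was itself a condition for these genes, so the count is a description. Relative to replicate 2, the median of these 10 was 0.472 in replicate 1 (range 0.337 to 0.513) and 0.0630 in replicate 3 (range 0.0346 to 0.393), with FBN1 at the upper end. EFTUD2 mRNA in replicates 1 and 3 was 1.04 and 1.06 times that in replicate 2. The exception was BGN, which encodes biglycan, with 0.22, 0.28 and 0.30 FPKM versus 0.30, 0.19 and 1.44 FPKM. It was thus highest in replicate 3, and its log2 fold change of 0.30 turned to -0.03 without that library.

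**Figure D4:**
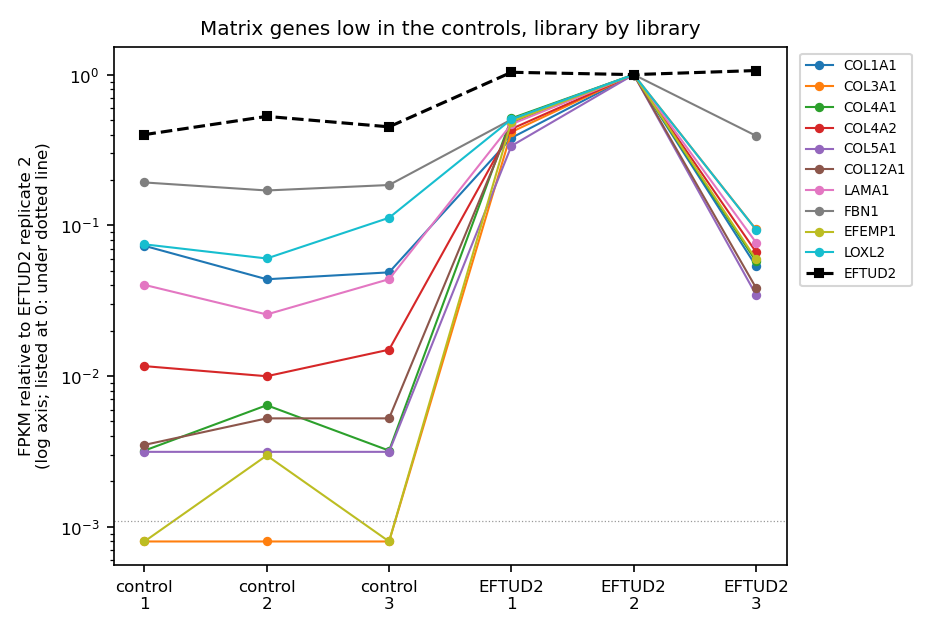
FPKM of 10 matrix genes, and of EFTUD2 as a dashed line, in each library relative to EFTUD2 replicate 2, on a log axis; lines join the values of 1 gene. The 10 genes are near 0.47 in EFTUD2 replicate 1 and mostly near 0.06 in replicate 3, while EFTUD2 itself is about level over the 3 EFTUD2 libraries.

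Markers of other cells were read beside these genes. The keratins KRT7 and KRT17, of simple ducts and basal epithelium, had the same order of libraries: KRT17 measured 1.12 to 1.80 FPKM in control cells versus 66.9, 135.1 and 9.29 FPKM in EFTUD2 cells, and KRT7 0.61 to 1.34 FPKM versus 24.7, 61.2 and 0.78 FPKM. KRT19 went the other way, from 348.1 ± 30.4 to 139.7 ± 32.5 FPKM (SD, n = 3 each). EPCAM, the remaining marker of simple and ductal epithelium, overlapped between the groups, at 104.3 ± 15.3 versus 97.4 ± 5.76 FPKM (SD, n = 3 each). Of the 8 fibroblast markers, PDGFRA, THY1, PDPN and FAP did not exceed 0.07 FPKM in any library, DDR2 stood between 0.06 and 0.25 FPKM and PDGFRB between 0.41 and 2.07 FPKM. TAGLN was lower with EFTUD2 without overlap, at 25.6 ± 3.39 versus 12.4 ± 5.21 FPKM (SD, n = 3 each). The sum of all 8 was 54.9 to 61.7 FPKM in the controls and 32.2 to 60.2 FPKM with EFTUD2, nearly all of it ACTA2 and TAGLN. Of the 6 endothelial markers, KDR, TEK and EMCN did not exceed 0.01 FPKM. CDH5 (0.06 to 0.08 versus 0.19 to 0.28 FPKM) and VWF (0.15 to 0.33 versus 0.46 to 0.60 FPKM) were higher with EFTUD2 without overlap. PECAM1 (0.85 to 1.19 versus 0.54 to 0.81 FPKM) was lower without overlap. Over all genes tested, 7.92% were higher and 19.4% lower without overlap. The limma adjusted p was 0.40 for CDH5, VWF and PECAM1. CDH5 had been tested through the EFTUD2 libraries alone, so its direction is no result. The 6 endothelial markers summed to 1.10 to 1.53 FPKM in the controls and 1.29 to 1.60 FPKM with EFTUD2. Of the 7 macrophage markers, PTPRC did not exceed 0.02 FPKM and TYROBP was listed at 0 throughout. CYBB, CSF1R and CD163 did not exceed 0.12 FPKM, and CD68 overlapped between the groups. CD14 was higher in every EFTUD2 library (0.60 to 1.03 versus 1.41 to 2.51 FPKM, log2 fold change 0.70, limma adjusted p = 0.40). The macrophage sum, mostly CD68, was 17.6 to 31.5 FPKM in the controls and 26.6 to 35.7 FPKM with EFTUD2. The part of these markers in the levels of the matrix genes was not tested.

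SPP1, which encodes osteopontin, a secreted phosphoprotein that binds integrins, was the highest of the 42 genes in the controls, at the 99.4th percentile of all genes by control mean. It measured 173.1, 441.2 and 455.1 FPKM in control cells versus 1154, 1210 and 521.4 FPKM in EFTUD2 cells. Control replicate 1 was low and EFTUD2 replicate 3 came near the controls, but the groups did not overlap. The ratio of means was 2.70 and the log2 fold change 1.46 (SE 0.47, limma adjusted p = 0.40), with a range of 1.0 to 1.85 over the fits that left out 1 library each.

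SPP1 and LUM were also chosen by the study for qPCR. Their primers, shown because they mark which part of each transcript was read there, matched exons of GENCODE release 29 (GRCh38) without mismatch. The SPP1 pair lies in coding sequence of exon 5 at chr4:87981677-87981793 (plus strand, product of 117 bases), and the LUM pair in coding sequence of exon 3 at chr12:91104173-91104257 (minus strand, product of 85 bases):

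SPP1 forward: tgccagcaaccgaagttttc

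SPP1 reverse: tgtcaggtctgcgaaacttc

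LUM forward: ttgcgtttggatggcaatcg

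LUM reverse: gagtgacttcgttagcaacacg

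LUM encodes lumican, a small leucine-rich proteoglycan that spaces collagen fibrils. It measured 0, 0.01 and 0 FPKM in control cells versus 0.35, 0.56 and 0.01 FPKM in EFTUD2 cells, so the third library did not exceed the second control. DCN, which encodes the related decorin, reached at most 0.04 FPKM.

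Of the other matricellular genes, SPARC and THBS1 overlapped between the groups and TNC was barely detected. SPARC, which encodes osteonectin, a collagen-binding protein, measured 28.4, 37.1 and 41.5 FPKM in control cells versus 35.5, 29.1 and 44.5 FPKM in EFTUD2 cells (log2 fold change 0.02, 95% interval -0.45 to 0.50). THBS1, which encodes thrombospondin and can activate TGF-beta, measured 33.7, 29.9 and 19.6 FPKM versus 23.2, 21.1 and 49.0 FPKM. Its highest value was that of EFTUD2 replicate 3, and its log2 fold change of 0.09 (standard error 0.35) became -0.28 without it. TNC, which encodes tenascin, a protein of healing tissue, was listed at 0 in every control and measured 0.07, 0.18 and 0.01 FPKM in EFTUD2 cells.

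VTN and FBLN1 were abundant among the 42 genes. VTN, which encodes vitronectin, a plasma and matrix protein made by hepatocytes, measured 90.4, 62.4 and 80.9 FPKM in control cells versus 89.3, 96.7 and 98.7 FPKM in EFTUD2 cells (log2 fold change 0.30, SE 0.15, limma adjusted p = 0.42). FBLN1, which encodes a fibulin of basement membranes and elastic fibers, measured 62.6, 48.4 and 62.1 FPKM versus 62.9, 74.0 and 97.3 FPKM. Its groups did not overlap by a narrow margin (log2 fold change 0.42, SE 0.19, limma adjusted p = 0.41), and the log2 fold change was 0.25 without EFTUD2 replicate 3.

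Of the 5 enzymes that modify collagen, 4 were expressed in the controls. LOX, which encodes lysyl oxidase and cross-links collagen and elastin, measured 8.33, 4.40 and 8.53 FPKM in control cells versus 10.5, 11.6 and 12.3 FPKM in EFTUD2 cells. All EFTUD2 libraries were above all controls and close to each other, with a ratio of means of 1.62 (log2 fold change 0.67, SE 0.23, limma adjusted p = 0.40). Without the low control replicate 2, the log2 fold change was 0.40. LOXL2, a related oxidase, measured 0.36, 0.29 and 0.54 FPKM versus 2.43, 4.81 and 0.45 FPKM, with replicate 3 at the level of the controls. Its log2 fold change was 1.14 (SE 0.46, limma adjusted p = 0.40, and 0.042 without EFTUD2 replicate 3).

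P4HA1 and P4HA2 encode catalytic subunits of prolyl hydroxylase, which stabilizes the collagen triple helix. P4HA1 measured 26.7, 16.1 and 26.5 FPKM in control cells versus 31.9, 26.4 and 56.7 FPKM in EFTUD2 cells, where replicate 3 was the highest (log2 fold change 0.66, SE 0.32, limma adjusted p = 0.41). The log2 fold change was 0.35 without that library. P4HA2 differed by less than the spread between libraries, with 22.6, 19.9 and 24.2 FPKM versus 22.5, 21.6 and 25.1 FPKM. P4HA2 was 0.997 ± 0.208 times P4HA1 in the controls and 0.656 ± 0.193 times with EFTUD2 (SD, n = 3 each; exact two-sided permutation test, p = 0.1, 0.175 after adjustment). PLOD2, a lysyl hydroxylase that acts before cross-linking, measured 62.6, 49.2 and 82.7 FPKM versus 76.8, 66.8 and 70.5 FPKM, so the control spread covered all EFTUD2 libraries.

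A second list of 105 matrix genes outside the 42 was compared in the same fit. Of these, 101 were found and 69 tested, and 0 had an adjusted p under 0.05 from limma. Of the 69, 5 (COL8A1, COL15A1, FBN2, SRGN and P3H2) had been tested through the EFTUD2 libraries alone, so that their direction is no result. At an unadjusted p under 0.05, 12 of the 69 were higher and 1 lower, against 4.4% and 7.9% of all genes tested. The groups did not overlap for 19 higher genes, those 5 among them, and for 4 lower genes. Over all genes tested these shares were 7.92% and 19.4%. The median log2 fold change was 0.11, below that of the 37 genes and above the -0.07 of all genes tested. FN1, which encodes fibronectin, had the highest control mean of both lists, 856.7 ± 204.2 FPKM, and stood at 906.0 ± 305.1 FPKM with EFTUD2 (SD, n = 3 each).

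By size of the change, the 8 leading genes of this list with a group mean of at least 1 FPKM and without overlap were COL15A1, CCN1, FBN2, P3H2, SRGN, LOXL4, PCOLCE and SMOC1, all higher. COL15A1, a basement membrane collagen related to COL18A1, measured 0.01, 0.01 and 0.02 FPKM in control cells versus 2.05, 6.15 and 0.42 FPKM in EFTUD2 cells. FBN2 (1.51, 3.20 and 0.19 FPKM with EFTUD2), P3H2 (1.14, 2.82 and 0.08 FPKM) and SRGN (1.0, 2.03 and 0.29 FPKM) had the same order of libraries, and none of them exceeded 0.10 FPKM in a control. LOXL4, a lysyl oxidase, measured 9.31, 6.32 and 8.24 FPKM in control cells versus 12.0, 12.6 and 24.1 FPKM in EFTUD2 cells, and CCN1, a matricellular protein, at 11.1, 6.83 and 5.44 FPKM and at 11.6, 15.1 and 87.1 FPKM. In these 2 genes replicate 3 was the highest. Without it, the log2 fold change went from 0.89 to 0.59 for LOXL4 and from 1.63 to 0.75 for CCN1. PCOLCE, which enhances the trimming of procollagen, went from 10.4 ± 1.97 to 18.0 ± 5.46 FPKM, and SMOC1, a calcium-binding protein of basement membranes, from 9.07 ± 0.711 to 15.6 ± 3.19 FPKM (SD, n = 3 each). The adjusted p of SMOC1 was 0.36 from limma. The log2 fold change of PCOLCE went from 0.71 to 0.50 without EFTUD2 replicate 3, and that of SMOC1 from 0.70 to 0.79. Without EFTUD2 replicate 3, 2 genes of this list, FBN2 and SRGN, had an adjusted p under 0.05 from limma, against 0.973% of all genes. Both had been tested through the EFTUD2 libraries alone, as had COL15A1 and P3H2, so the direction of these genes is no result.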

How the data were processed

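Total RNA of Hep G2 cells was extracted with TRIzol, enriched for poly-A mRNA and sequenced on a BGISEQ platform. The authors deposited FPKM values per gene and library, rounded to 2 decimals. The authors' processing notes name HISAT2, Bowtie2, RSEM, DESeq2 and the build hg38, with no versions or roles. Depth is unknown, so the number of libraries limits the precision. A gene was tested if it averaged 0.1 FPKM or more over all 6 libraries. Its log2(FPKM + 1) was compared between the groups in limma 3.58.1 (lmFit, eBayes with trend, R 4.3.3), with Benjamini-Hochberg adjustment over all 17222 genes tested. A count test needs read counts, which were not analysed here. For single ratios, the two-sided permutation test was exact.

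The members and lists were chosen with earlier results of these data known. All 42 genes are accounted for. Those with a mean of at least 1 FPKM in either group are given library by library, as are SPP1 and LUM. From the second matrix list, the 8 largest changes without overlap were named. FN1, the motifs and the chain ratios were chosen after values were seen. The fits were tested on simulated data. Alternatives were other pseudocounts (0.1 and 0.01), other filters, 3 scalings, a block on the replicate number, gene-by-gene array weights and each library left out. Tables and plots were made in Python 3.11.15 (pandas 2.3.3, matplotlib 3.10.9, scipy 1.17.1).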

Additional observations from a re-analysis of the deposited data

How the results depend on the processing

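No setting turned the direction of 27 of the 37 matrix genes tested. These include the 7 genes tested through the EFTUD2 libraries alone, for which the direction is no result. The count of matrix genes with an adjusted p under 0.05 was 13 with array weights and 0 to 6 over the fits without 1 library each, where 6 was reached without EFTUD2 replicate 3; it was 0 under every other setting. For the second matrix list this count was 10 with array weights (14.5%, against 7.87% of all genes) and 0 to 2 without 1 library each. The 10 include COL15A1, FBN2, P3H2 and SRGN, which had been tested through the EFTUD2 libraries alone. Matrix genes higher at an unadjusted p under 0.05 numbered 7 when a mean of at least 1 FPKM was required, a setting that tests fewer of them, and 5 to 14 without 1 library each. Genes lower at this threshold numbered 1 with array weights and 0 to 1 without 1 library each. The groups did not overlap in the higher direction for 8 genes with the filter of 1 FPKM, and in the lower direction for 0 to 1 genes without 1 library each.

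Directions turned for genes whose log2 fold change was small. With the median of ratios it was 0.0891 for COL27A1, 0.13 for LAMB1 and 0.0649 for LAMB3, and with quantile normalization 0.0305, 0.0580 and 0.0329. With a common sum it was -0.0216 for LAMC1 and -0.0174 for SPARC. With array weights it was -0.0297 for COL18A1, 0.10 for COL27A1, 0.19 for LAMB3, -0.0282 for LAMC1, -0.19 for SPARC and -0.0452 for P4HA2. Without 1 library each it ranged from -0.0146 to 0.19 for COL18A1, -0.18 to 0.12 for COL27A1, -0.14 to 0.12 for LAMB1, -0.56 to 0.61 for LAMB3, -0.0430 to 0.0849 for LAMC1, -0.13 to 0.17 for SPARC, -0.0258 to 0.49 for BGN, -0.28 to 0.31 for THBS1, -0.0203 to 0.11 for P4HA2 and -0.0151 to 0.35 for PLOD2. The cause was not tested.

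With the replicate number as a block, 0 matrix genes were called and 14 were higher at an unadjusted p under 0.05, as without it. The deviations of same-numbered libraries from their group means correlated at -0.299, 0.353 and -0.094, and those of libraries with different numbers at -0.397 to 0.382. Deviations within a group of 3 sum to 0 and so depend on each other. These values therefore cannot decide whether the numbers pair the libraries.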

Other observations

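The share of SPP1 in the summed FPKM of the 42 matrix genes was 33.8% in the control means and 54.0% in the EFTUD2 means. VTN followed with 7.37% and 5.33%. The 19 genes with a control mean under 0.5 FPKM stayed at a small part of the sum in every library, at most 35.9 of 1999 FPKM in EFTUD2 replicate 2.

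Some of the genes lie next to each other on a chromosome (RefSeq, GRCh38.p14). COL3A1 and COL5A2 are separated by 19151 bases on chromosome 2, and COL3A1 was present in the EFTUD2 libraries alone, while COL5A2 was low in all 6. LUM and DCN are separated by 28989 bases on chromosome 12, and both were highest in EFTUD2 replicate 2, at 0.56 and 0.04 FPKM. COL6A1 and COL6A2 are separated by 93063 bases on chromosome 21, and COL6A2 was 0.118 ± 0.0241 times COL6A1 in the controls and 0.278 ± 0.108 times with EFTUD2 (SD, n = 3 each; exact two-sided permutation test, p = 0.1, 0.175 after adjustment over 7 ratios).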
